A study of Mus musculus with 12 samples.

Results

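The genes described here are p53 and its target genes in mouse liver progenitor cells: 33 listed genes, made up of Trp53, which encodes p53, its inhibitors Mdm2 and Mdm4, and genes named as transcriptional targets. They were chosen by name, but with earlier results of these data known, so their shares set against all genes are descriptive. They were matched by Ensembl identifier among 54146 gene identifiers counted in 12 RNA-seq libraries. Each of the 4 groups held 3 libraries of BMEL cells, a bipotential mouse embryonic liver line. The groups were Cdk8 -/- cells transformed by H-RasG12V (Cdk8 knockout), Cdk19 -/- cells transformed by H-RasG12V (Cdk19 knockout), wild-type cells transformed by H-RasG12V (RasG12V), and wild-type cells with no transformation (untransformed). H-RasG12V is a form of H-Ras that stays in its active, GTP-bound state, and Cdk8 and Cdk19 are paralogous kinases of the Mediator complex. The line was derived from a mouse with floxed Cdk8 alleles, so every group shares that origin, and all groups grew exponentially on collagen with serum, insulin, IGFII and EGF. Neither knockout was measured without H-RasG12V, all groups come from a single cell line, and the labels do not say whether a group is 1 clone or whether its 3 libraries came from separate cultures. The p-values below therefore measure the spread between these libraries, which may be technical.

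p53 is a transcription factor that is held at a low level by Mdm2, a ubiquitin ligase that sends it for degradation, and by Mdm4, a relative of Mdm2 that masks its activation domain. DNA damage, ribosomal stress and oncogene signalling release p53 from this control, the last through the Arf protein of the Cdkn2a locus. Active p53 binds response elements near genes that stop the cell cycle, trigger apoptosis, repair DNA or adjust metabolism, and it also induces Mdm2, which closes a feedback loop. Because p53 is regulated mainly as a protein, the level of Trp53 RNA is no measure of its activity.

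Libraries held between 24823560 and 36879661 gene counts, and levels are given as CPM, which are counts scaled to the same library total after TMM scaling. RasG12V replicate 3 and untransformed replicate 3 stood apart from the other libraries of their groups on the first principal components. The summed level of 16 S phase genes was 1365 CPM in RasG12V replicate 3, against 2798 and 2733 CPM in RasG12V replicates 1 and 2. It was 2596 CPM in untransformed replicate 3, against 3255 and 3413 CPM in the other untransformed libraries. Many of the counts and calls that change without both of these libraries are given with and without them, but not every such call is named. The labels do not say whether reads of the transforming H-Ras count toward the mouse gene, and Hras averaged 452.9 ± 122.5 CPM in RasG12V cells and 49.95 ± 8.56 CPM in untransformed cells (SD, n = 3). Cdk8 averaged 42.8 CPM in Cdk8 knockout cells and 54.5 CPM in RasG12V cells, and Cdk19 averaged 49.8 CPM in Cdk19 knockout cells and 75.1 CPM in RasG12V cells. Counts over a whole gene do not check the deleted part of either kinase. Of the progenitor and epithelial markers, Krt8, Krt18, Krt19, Cdh1, Hnf4a and Foxa2 were all at 51.2 CPM or more in every library. Dlk1 was at 0, Epcam at most 0.211 CPM and Alb at most 4.1 CPM, and Afp lay between 7.09 and 21.7 CPM. Many of these markers differed between RasG12V and untransformed cells, as given below. Summed markers of stellate, endothelial and erythroid cells reached at most 2.33, 0.702 and 0.242 CPM, and those of macrophages and leukocytes lay between 33.5 and 60.4 CPM, nearly all of it Cd14 and Cd68, with Adgre1, Clec4f and Cd3e at 0. In bulk libraries such as these, a change in the number of cells in a given state and a change in RNA per cell cannot be told apart.

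Of the 33 members, 31 had enough counts to be tested. Gdf15, a stress cytokine, held 4 counts over the 3 Cdk8 knockout libraries, 1 over the Cdk19 knockout libraries, 2 over the RasG12V libraries and 6 over the untransformed libraries. Trp53cor1, the long non-coding RNA next to Cdkn1a known as lincRNA-p21, had a single count among all 12 libraries. Both were thus near the limit of detection in every group, where 3 counts correspond to between 0.0813 and 0.121 CPM in 1 library. The tested members were expressed well above the typical gene, with a median of 80.0 CPM against 22.7 CPM for all 14283 genes tested.

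Per kilobase of exon, the members spanned a wide range. The most abundant was Ccng1, which encodes cyclin G1, at 651 CPM per kb averaged over the 12 libraries. Mdm2 followed at 201 CPM per kb, and Perp, a membrane protein of desmosomes, at 154 CPM per kb. Pmaip1 stood at 75.8, Ephx1 at 73.3, Trp53 at 67.8 and Ei24 at 66.0 CPM per kb, so these 4 could not be ordered beyond the spread between groups, since Ephx1 alone ranged from 35.2 CPM per kb in Cdk8 knockout cells to 168 CPM per kb in untransformed cells. At the other end were Fas at 3.44, Pltp at 2.81 and Sesn1 at 2.55 CPM per kb. Among the regulators, Mdm4 was low at 6.50 CPM per kb, below both Mdm2 and Trp53.

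The promoters of 24 members were found in RefSeq (GRCm38.p6), as 32 windows that run from 250 bases before to 50 bases after a transcription start. They were searched on both strands for the p53 decamer, which is the repeated unit of a p53 response element, for the AP-1 site TGANTCA, bound by Fos and Jun proteins that act downstream of Ras, and for the GC box GGGCGG. A p53 decamer lay in a window of 9 of the 24 members (37.5%), against 9.55% of 27025 genes. The AP-1 site was present for 2 members (8.33%), against 8.97% of all genes, and the GC box for 18 members (75.0%), against 38.2%. No decamer shared a base with an AP-1 site or a GC box. These matches describe letters in a short window. A full response element holds a pair of decamers and often lies in an intron, outside these windows. For Polk and Sesn1 the decamer lay in the window of a further start inside the gene, and their other window held none. The 9 decamers are shown because they are the p53-type letters found in the windows of the members, read on the strand of the gene.
Aen: GGGCTTGTCC
Bax: AGGCAAGCTT
Ccng1: GGGCAAGCCT
Ddit4l: GGGCTTGCCT
Ei24: GGGCATGCCC
Mdm2: GAACTTGCCT
Polk: GAACTAGCCT
Sesn1: AAGCTTGTTT
Trp53: GGACTTGCCC

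The search pattern sets the places of the C and G of the core. The decamers differ in the A and T bases between these and in the purines and pyrimidines around them. The decamer of Trp53 itself began 75 bases before its start, that of Ddit4l 90 bases before, that of Ccng1 185 bases before and that of Mdm2 186 bases before, while the decamer of Aen began 10 bases after the first of its starts.

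The promoters of Mdm2 (chr10:117710709-117711008, minus strand), Plk3 (chr4:117133914-117134213, minus strand), Fas (chr19:34290409-34290708, plus strand) and Ephx1 (chr1:181017520-181017819, minus strand) are printed because these genes had the smallest adjusted p-values between RasG12V and untransformed cells among members with an entry. Capitals mark p53 decamers and AP-1 sites.
Mdm2: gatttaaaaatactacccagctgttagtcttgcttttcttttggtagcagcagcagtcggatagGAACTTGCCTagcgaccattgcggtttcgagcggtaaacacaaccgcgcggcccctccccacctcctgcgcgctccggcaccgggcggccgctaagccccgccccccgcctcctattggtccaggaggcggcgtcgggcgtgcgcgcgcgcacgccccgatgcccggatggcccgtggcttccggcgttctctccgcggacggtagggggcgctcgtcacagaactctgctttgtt
Plk3: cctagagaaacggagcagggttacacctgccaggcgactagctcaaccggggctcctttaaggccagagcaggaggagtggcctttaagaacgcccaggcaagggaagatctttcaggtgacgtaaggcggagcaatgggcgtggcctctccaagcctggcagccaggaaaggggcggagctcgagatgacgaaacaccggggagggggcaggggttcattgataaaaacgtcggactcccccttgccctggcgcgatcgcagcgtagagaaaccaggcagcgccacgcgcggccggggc
Fas: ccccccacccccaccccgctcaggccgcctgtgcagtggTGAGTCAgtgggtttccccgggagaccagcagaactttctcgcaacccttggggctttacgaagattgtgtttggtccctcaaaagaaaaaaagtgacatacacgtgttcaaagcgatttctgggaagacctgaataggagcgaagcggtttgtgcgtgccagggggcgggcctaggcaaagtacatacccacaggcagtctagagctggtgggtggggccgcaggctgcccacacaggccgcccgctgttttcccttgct
Ephx1: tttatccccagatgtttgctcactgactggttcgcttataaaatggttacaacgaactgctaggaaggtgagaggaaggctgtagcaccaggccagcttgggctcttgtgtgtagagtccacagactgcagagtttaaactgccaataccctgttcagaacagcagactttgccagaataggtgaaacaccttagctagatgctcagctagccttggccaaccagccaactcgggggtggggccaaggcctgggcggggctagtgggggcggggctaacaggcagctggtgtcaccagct

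The capitals in Mdm2 are its decamer, and those in Fas are its AP-1 site. Plk3 and Ephx1 held neither motif in this window. All 4 windows held at least 1 GC box.

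Transformation was examined first by comparing RasG12V with untransformed cells. The members did not move as a block. Of the 31 tested, 7 rose and 6 fell in RasG12V cells, so 13 (41.9%) passed the threshold, against a background of 23.4% of all genes tested (11.9% higher and 11.5% lower). The members that rose were Mdm2, Plk3, Pmaip1, Perp, Tnfrsf10b, Rrm2b and Polk. Those that fell were Phlda3, Eda2r, Fas, Ephx1, Ddit4l and Ddb2. The median log2 fold change was 0.01 over the members and 0.00 over all genes, and the median absolute log2 fold change was 0.26 over the members and 0.23 over all genes. Calls were made with the quasi-likelihood test of edgeR at an adjusted p of 0.05, and each log2 fold change is given with an approximate standard error (SE). Members whose libraries did not overlap between these groups are named below. They were 8 of the 31 in the higher and 7 in the lower direction, against 16.2% of all genes in each direction.

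**Figure D1:**
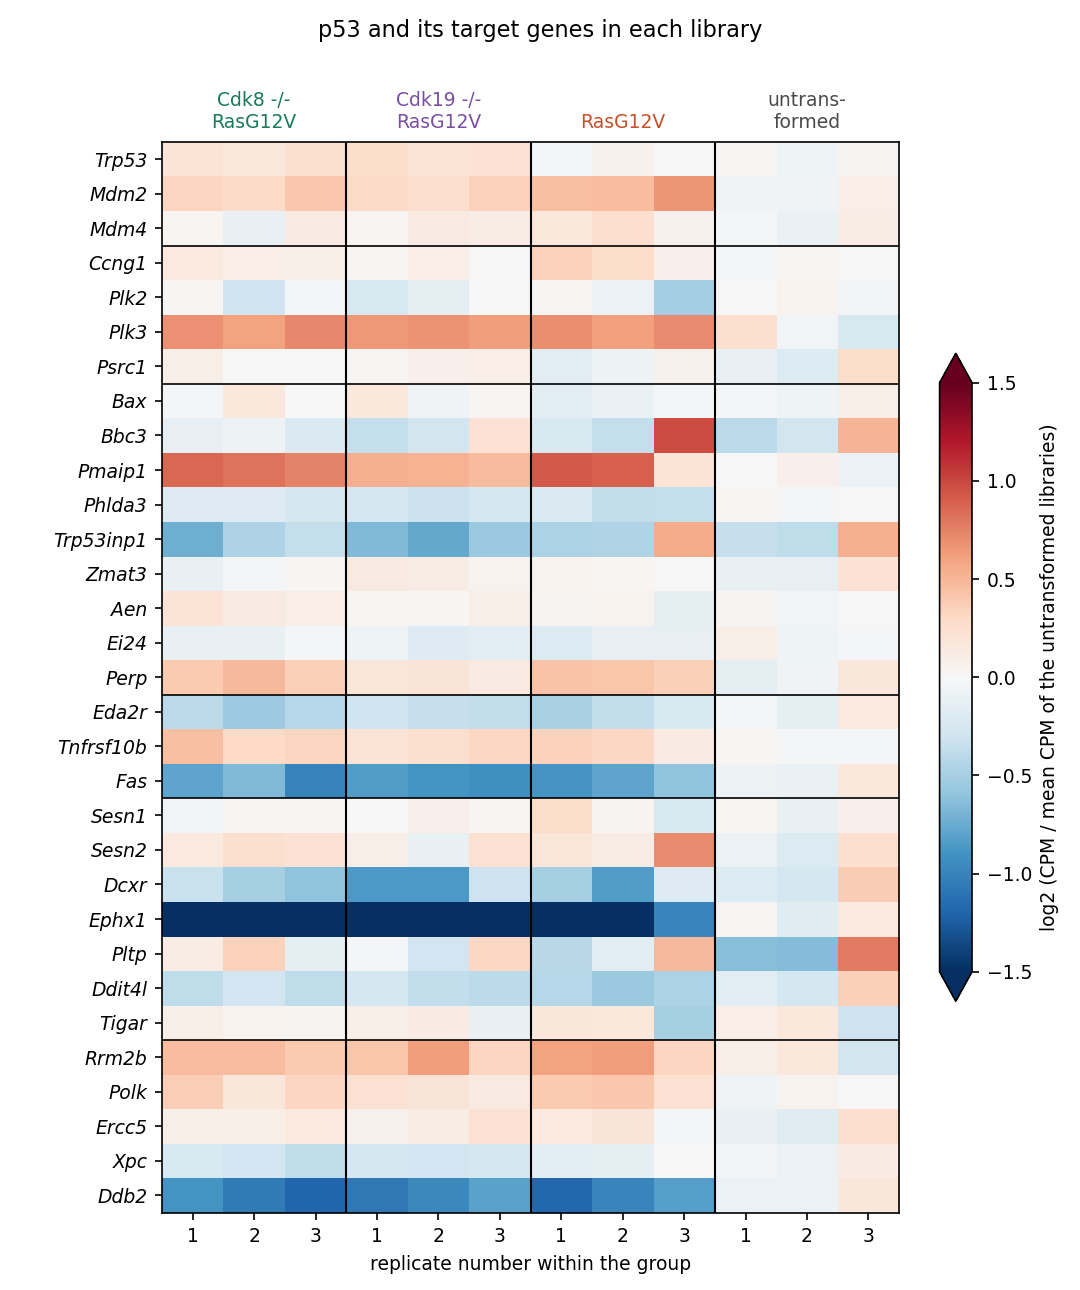
Level of each of the 31 tested members in each of the 12 libraries, as log2 of its CPM over the mean CPM of the 3 untransformed libraries. Columns are libraries by group and replicate number, lines separate the groups and the functional roles, and the colour scale ends at -1.5 and 1.5. Pmaip1, Plk3 and Mdm2 were high and Ephx1, Ddb2 and Fas low in every transformed library, while Bbc3 and Trp53inp1 were high in replicate 3 of the RasG12V and untransformed groups.

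Among p53 and its regulators, 1 of 3 rose (33.3%, against 23.4% of all genes called in either direction). Trp53 stood at 249.7, 265.3 and 252.3 CPM in RasG12V libraries, against 257.1, 241.7 and 261.1 CPM in untransformed libraries. The groups overlapped, and the log2 fold change was 0.01 (SE 0.06, adjusted p = 0.908). Mdm2 stood at 1131, 1145 and 1313 CPM in RasG12V libraries, against 799.9, 799.0 and 883.3 CPM in untransformed libraries. All RasG12V libraries lay above all untransformed ones, and Mdm2 was 1.45-fold higher (log2 fold change 0.53, SE 0.08, adjusted p = 4.93e-04). Mdm4 was at 101.9, 109.2 and 95.98 CPM in RasG12V libraries and at 90.5, 85.3 and 98.9 CPM in untransformed libraries, which overlapped (log2 fold change 0.16, SE 0.09, adjusted p = 0.210). Without replicate 3 of both groups Mdm4 rose, by 0.25 on the log2 scale (adjusted p = 0.0177).

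Of the 4 tested cell cycle members, Plk3 rose (25.0%, against 23.4% of all genes). This polo-like kinase, which takes part in stress responses, was at 17.9, 16.8 and 18.02 CPM in RasG12V libraries, against 12.95, 10.7 and 9.33 CPM in untransformed libraries. The groups did not overlap, and the log2 fold change was 0.68 (SE 0.11, adjusted p = 9.30e-04). Ccng1, whose product recruits a phosphatase to Mdm2, was at 2714, 2581 and 2250 CPM in RasG12V libraries, against 2103, 2171 and 2129 CPM in untransformed libraries. Every RasG12V library was higher, but Ccng1 narrowly missed the threshold (log2 fold change 0.24, SE 0.08, adjusted p = 0.0522), and passed it without both replicate 3 libraries (log2 fold change 0.29, adjusted p = 0.00142). Plk2, a polo-like kinase of centriole duplication, and Psrc1, a spindle protein, had log2 fold changes of -0.18 and -0.05 and did not pass.

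Of the 9 tested members that act in apoptosis, 2 rose and 1 fell (33.3%, against 23.4% of all genes). Pmaip1, which encodes the BH3-only protein Noxa, was at 270.6, 265.3 and 164.5 CPM in RasG12V libraries, against 143.5, 150.2 and 133.7 CPM in untransformed libraries. Replicate 3 was the lowest RasG12V library and still lay above all untransformed ones, and Pmaip1 was 1.64-fold higher (log2 fold change 0.71, SE 0.15, adjusted p = 0.00369). Perp was at 337.6, 335.1 and 322.2 CPM in RasG12V libraries, against 228.6, 242.9 and 284.0 CPM in untransformed libraries. The groups did not overlap (log2 fold change 0.40, SE 0.08, adjusted p = 0.00384). Phlda3, a pleckstrin-homology protein that restrains Akt, was at 58.5, 52.9 and 52.9 CPM in RasG12V libraries, against 69.5, 66.6 and 67.98 CPM in untransformed libraries. It was lower in every RasG12V library (log2 fold change -0.31, SE 0.07, adjusted p = 0.00489).

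The other 6 apoptotic members did not pass with all libraries. Without both replicate 3 libraries, 2 of the 9 tested rose and 2 fell (44.4%, against 40.0% of all genes). Bax, whose product opens the outer mitochondrial membrane, was at 71.6, 74.5 and 79.1 CPM in RasG12V libraries, against 78.7, 76.2 and 84.99 CPM in untransformed libraries (log2 fold change -0.09, adjusted p = 0.475). Aen, a nuclease of apoptotic cells, and Zmat3, an RNA-binding zinc finger protein, had log2 fold changes of -0.01 and 0.03. Ei24, a membrane protein of the endoplasmic reticulum, was at 296.9, 315.4 and 314.6 CPM in RasG12V libraries and at 363.0, 326.5 and 338.4 CPM in untransformed libraries. These did not overlap, yet the log2 fold change of -0.15 did not pass (SE 0.07, adjusted p = 0.147). Bbc3, which encodes the BH3-only protein Puma, had a log2 fold change of 0.27 (SE 0.33, adjusted p = 0.618), and Trp53inp1, a stress protein of autophagy and cell death, one of -0.04 (SE 0.28, adjusted p = 0.947). The wide errors of Bbc3 and Trp53inp1 came with single libraries that are described below.

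**Figure D2:**
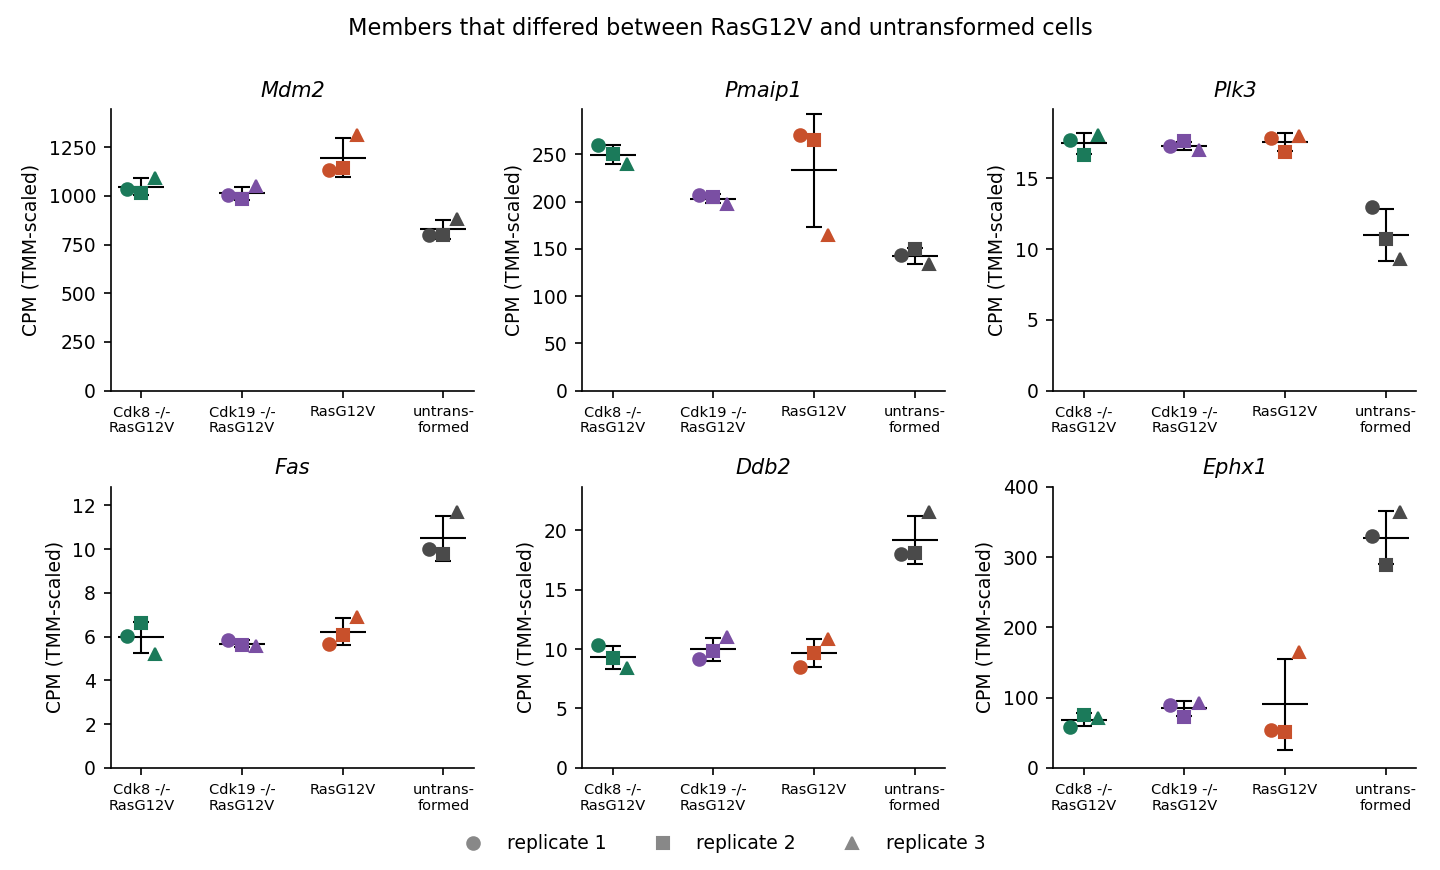
CPM of 6 members in each library, with the mean (long bar) and SD (whiskers) of the 3 libraries of a group. Every RasG12V library lay above every untransformed library for Mdm2, Pmaip1 and Plk3, and below for Fas, Ddb2 and Ephx1, and the libraries of both knockouts lay on the same side as RasG12V.

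All 3 death receptor members changed (100%, against 23.4% of all genes), and not in the same direction. Fas, the receptor of Fas ligand, was at 5.68, 6.09 and 6.90 CPM in RasG12V libraries, against 10.0, 9.80 and 11.7 CPM in untransformed libraries. The groups did not overlap, and the log2 fold change was -0.75 (SE 0.13, adjusted p = 0.00129). Eda2r, the receptor of ectodysplasin A2, was at 131.8, 142.8 and 157.6 CPM in RasG12V libraries, against 182.1, 168.3 and 204.3 CPM in untransformed libraries. It was lower in all RasG12V libraries (log2 fold change -0.36, SE 0.09, adjusted p = 0.0102), and the call was lost without RasG12V replicate 1 (adjusted p = 0.0572). Tnfrsf10b, the mouse receptor of the death ligand TRAIL, was at 86.4, 83.9 and 73.8 CPM in RasG12V libraries, against 69.3, 66.9 and 67.2 CPM in untransformed libraries. It was higher in each RasG12V library (log2 fold change 0.26, SE 0.08, adjusted p = 0.0255). This was the least stable call of the 13, lost without RasG12V replicate 1 (adjusted p = 0.0875) or 2 (0.0719) and without untransformed replicate 1 (0.0628) or 2 (0.0863).

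In the stress and metabolism group, 2 of 7 tested members fell and none rose (28.6%, against 23.4% of all genes). Ephx1, the microsomal epoxide hydrolase, a detoxifying enzyme of liver, had the largest difference of any member, with 54.5, 51.8 and 165 CPM in RasG12V libraries, against 330.5, 289.2 and 363.8 CPM in untransformed libraries. The groups were far apart even though RasG12V replicate 3 held about 3 times the level of the other RasG12V libraries. Its log2 fold change with all libraries stood at -1.85 (SE 0.35, adjusted p = 0.00235), and at -2.61 without RasG12V replicate 3 (adjusted p = 3.11e-08). Ddit4l, an inhibitor of mTORC1 signalling related to Redd1, was at 44.7, 40.95 and 43.2 CPM in RasG12V libraries, against 53.2, 50.1 and 76.8 CPM in untransformed libraries. It was lower without overlap (log2 fold change -0.48, SE 0.13, adjusted p = 0.0190). The size rested in part on untransformed replicate 3, without which the log2 fold change was -0.27 (adjusted p = 0.0238), and the call was lost without RasG12V replicate 2 (adjusted p = 0.0749).

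The remaining members did not pass with all libraries in the fit by group. Without both replicate 3 libraries, 1 of the 7 tested members rose and 2 fell (42.9%, against 40.0% of all genes). Sesn2, a sestrin that restrains mTORC1, was at 49.2, 47.0 and 71.2 CPM in RasG12V libraries, against 41.1, 37.8 and 51.7 CPM in untransformed libraries. The groups overlapped through untransformed replicate 3 alone (log2 fold change 0.36, SE 0.16, adjusted p = 0.126). With the replicate number added to the fit as a block, Sesn2 and Dcxr passed. Sesn1, the paralogue of Sesn2, was low and close to even, with a log2 fold change of 0.04 (SE 0.13). Tigar, a phosphatase that lowers fructose-2,6-bisphosphate, and Pltp, the phospholipid transfer protein, had log2 fold changes of -0.02 (SE 0.17) and 0.02 (SE 0.36). Dcxr, a reductase of dicarbonyls and L-xylulose, had a log2 fold change of -0.48 (SE 0.21, adjusted p = 0.122).

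Of 5 members in DNA repair and nucleotide supply, 2 rose and 1 fell (60.0%, against 23.4% of all genes). Rrm2b, the p53-induced subunit of ribonucleotide reductase, was at 82.2, 83.6 and 68.1 CPM in RasG12V libraries, against 57.5, 60.5 and 44.9 CPM in untransformed libraries. The groups did not overlap (log2 fold change 0.52, SE 0.12, adjusted p = 0.00758). Polk, a DNA polymerase that copies past lesions, was at 88.1, 88.8 and 78.8 CPM in RasG12V libraries, against 64.9, 69.8 and 66.96 CPM in untransformed libraries. It was higher in each RasG12V library (log2 fold change 0.34, SE 0.08, adjusted p = 0.00640). Ddb2, which recognises ultraviolet lesions for nucleotide excision repair, was at 8.45, 9.69 and 10.9 CPM in RasG12V libraries, against 17.99, 18.1 and 21.5 CPM in untransformed libraries. It was lower without overlap and had the smallest adjusted p of the members (log2 fold change -0.99, SE 0.13, adjusted p = 1.79e-04). Ddb2 lies across from Acp2 on the opposite strand, and the counts used are of the reverse strand only. The excision repair members Xpc, a lesion sensor, and Ercc5, an endonuclease, had log2 fold changes of -0.10 and 0.11 and did not pass. Ercc5 rose without both replicate 3 libraries (log2 fold change 0.30, adjusted p = 0.00212).

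**Figure D3:**
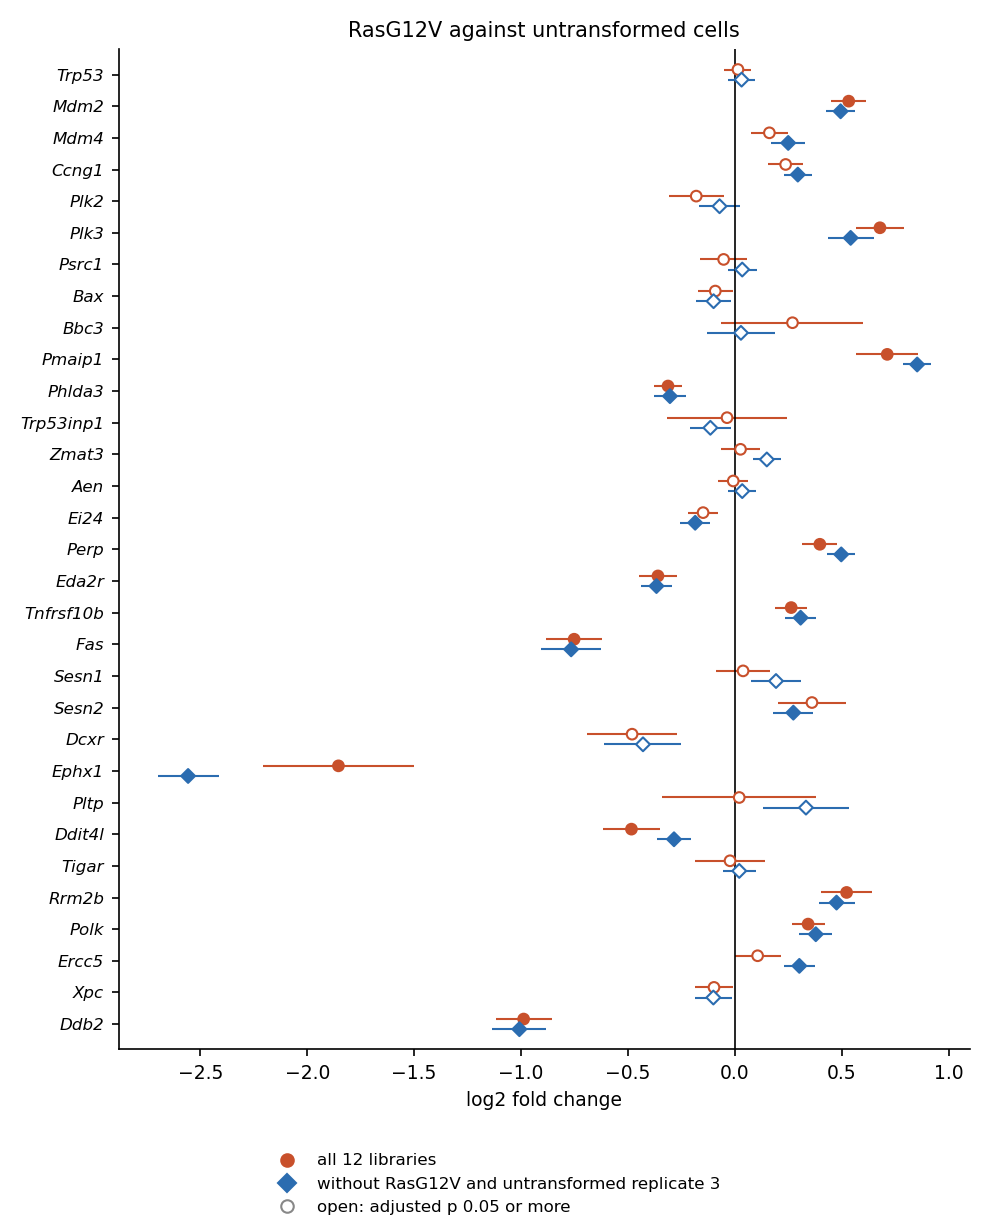
Log2 fold change of each tested member in RasG12V against untransformed cells, with bars of 1 approximate SE, in the fit of all 12 libraries (circles) and without replicate 3 of both groups (diamonds). Filled symbols have an adjusted p under 0.05, which holds for 13 members with all libraries and for 18 without those 2 libraries.

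Without RasG12V replicate 3 and untransformed replicate 3, 11 members rose and 7 fell, which is 58.1% of the 31, against a background of 40.0% of 14493 genes tested. When only the RasG12V and untransformed libraries entered the fit, 6 members passed (Mdm2, Fas, Plk3, Polk, Ephx1 and Ddb2), which is 19.4%, against a background of 11.4%. The other 7 calls were lost there, with adjusted p between 0.0502 for Pmaip1 and 0.128 for Ddit4l. The S phase genes moved with transformation too. With all libraries 0 of 16 rose and 6 fell in RasG12V cells, which is 37.5%, against 23.4% of all genes, with a median log2 fold change of -0.42. Without both replicate 3 libraries 12 fell, which is 75.0%, against 40.0% of all genes, with a median of -0.29. Progenitor and epithelial markers also moved: of 13 tested, 4 rose and 5 fell (69.2%), and 4 rose and 8 fell without both (92.3%). Among them Alb, which encodes albumin, held 2 counts over the RasG12V libraries, against 281 over the untransformed libraries. Afp, which encodes alpha-fetoprotein, averaged 15.6 CPM in RasG12V cells and 9.93 CPM in untransformed cells, and Cdh1, which encodes E-cadherin, 301.9 CPM in RasG12V cells and 540.9 CPM in untransformed cells. The summed level of all 15 markers ran from 6545 to 9322 CPM in RasG12V libraries and from 8162 to 9655 CPM in untransformed libraries. The part of these lists in the values of the members was not tested.

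The position of the untransformed libraries held across all transformed groups for many of these genes. For 6 members (Mdm2, Plk3, Pmaip1, Tnfrsf10b, Rrm2b and Polk) all 9 transformed libraries lay above all 3 untransformed ones, and for another 6 (Phlda3, Eda2r, Fas, Ephx1, Ddit4l and Ddb2) all 9 lay below. The background for this lack of overlap was 23.1% of all genes tested (11.6% higher and 11.5% lower), against 19.4% of members in each direction. Mdm2, for example, had a lowest value of 985.5 CPM among the transformed libraries and a highest value of 883.3 CPM among the untransformed ones. Ephx1 had a highest value of 165 CPM among the transformed libraries and a lowest value of 289.2 CPM among the untransformed ones.

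The knockouts were next compared with RasG12V cells, which asks how loss of either kinase changed the members in transformed cells. Both comparisons share the 3 RasG12V libraries. In Cdk8 knockout cells 0 of 31 members passed the threshold, and the background was 0.0% (0 of 14283 genes in edgeR, 30 in DESeq2). At an unadjusted p under 0.05 there were 4 of 31 members, against a background of 871 of 14283 genes (6.1%). Between the groups 6 of 31 members did not overlap, against 1791 of 14283 genes (12.5%). In Cdk19 knockout cells 0 members passed in edgeR and 1 in DESeq2, and the background was 0.014% (2 genes in edgeR, 66 in DESeq2). At an unadjusted p under 0.05 there were 5 of 31 members, against 1089 of 14283 genes (7.62%). In this comparison 7 of 31 members did not overlap, against 2073 of 14283 genes (14.5%). Log2 fold changes of the members ran from -0.47 to 0.19 in Cdk8 knockout cells, with a median of -0.01 against -0.01 over all genes. They ran from -0.62 to 0.21 in Cdk19 knockout cells, with a median of -0.01 against -0.01 over all genes.

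Trp53 itself had the smallest p of the members in both comparisons. It stood at 291.5, 283.5 and 300.2 CPM in Cdk8 knockout libraries and at 303.5, 292.3 and 293.9 CPM in Cdk19 knockout libraries, against 249.7, 265.3 and 252.3 CPM in RasG12V libraries. Every knockout library was above every RasG12V library. The log2 fold change was 0.19 in Cdk8 knockout cells (SE 0.06, adjusted p = 0.736) and 0.21 in Cdk19 knockout cells (SE 0.06, adjusted p = 0.407), and neither passed in edgeR. DESeq2 gave an adjusted p of 0.149 for the Cdk8 knockout and of 0.0358 for the Cdk19 knockout. Mdm2 lay on the other side: it was at 1037, 1013 and 1094 CPM in Cdk8 knockout libraries and at 1007, 985.5 and 1051 CPM in Cdk19 knockout libraries, against 1131, 1145 and 1313 CPM in RasG12V libraries. The libraries did not overlap, and the log2 fold changes of -0.19 (SE 0.08, adjusted p = 0.812) and -0.24 (SE 0.08, adjusted p = 0.509) did not pass. Mdm4 overlapped in both comparisons.

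**Figure D4:**
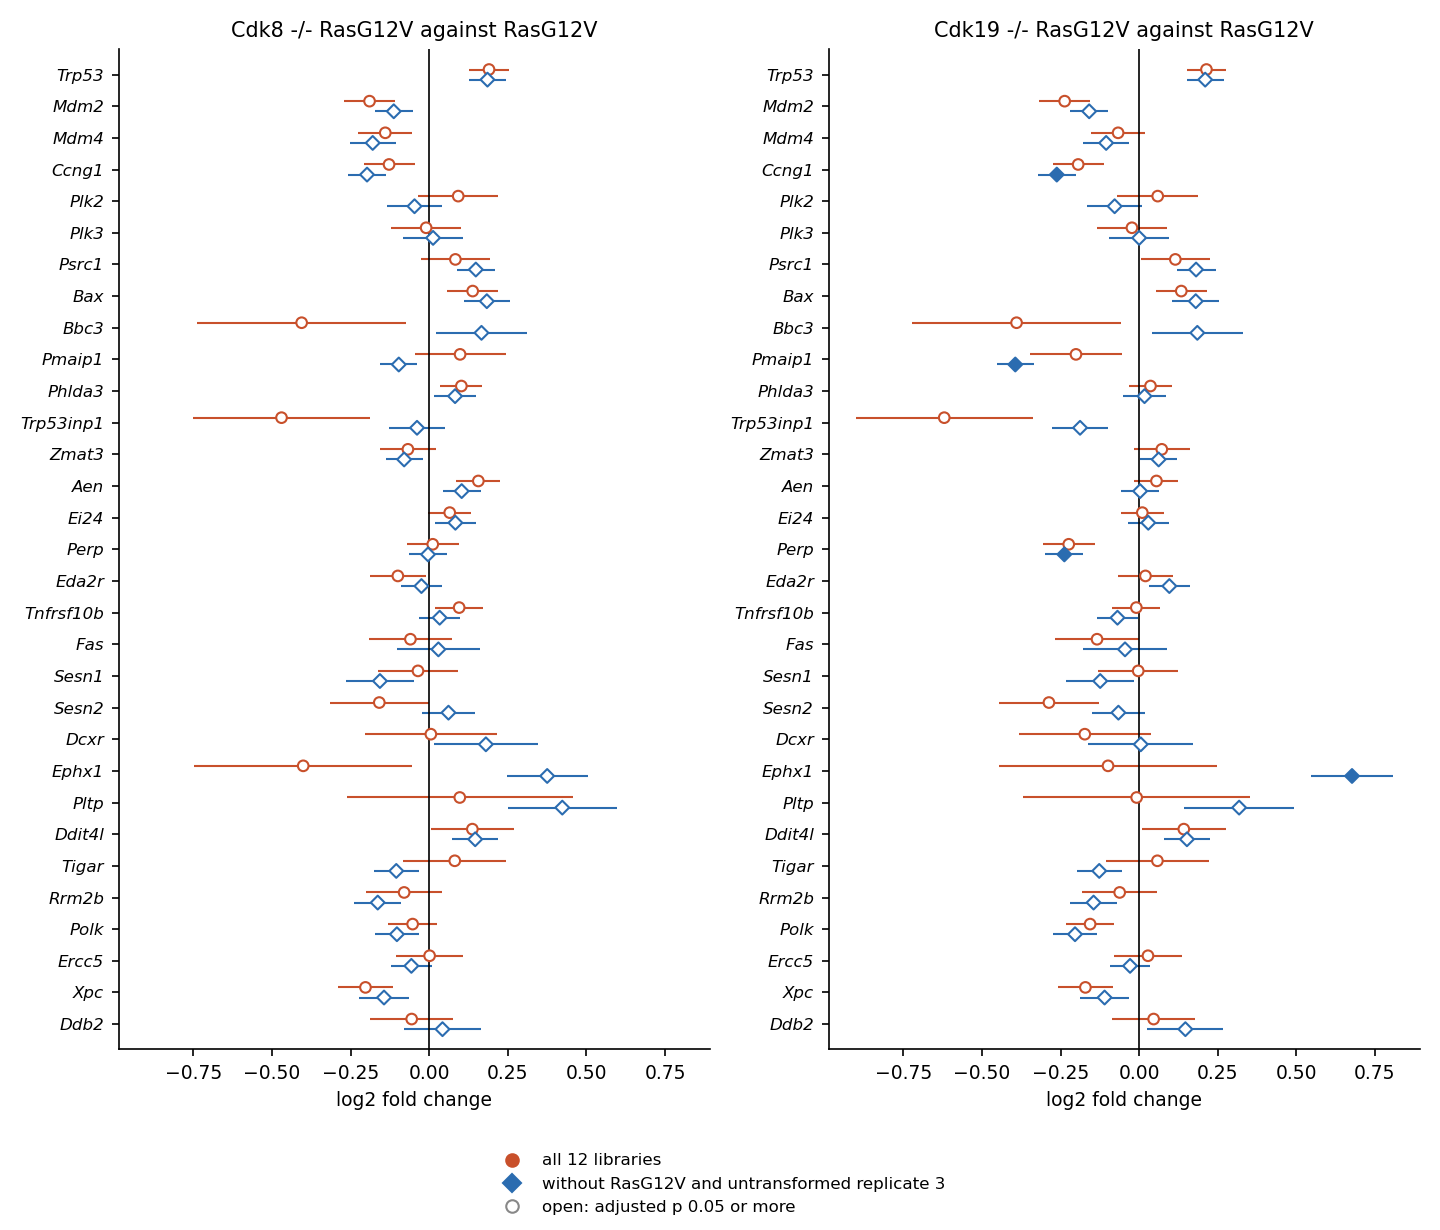
Log2 fold change of each tested member in Cdk8 knockout (left) and Cdk19 knockout (right) against RasG12V cells, with bars of 1 approximate SE, with all 12 libraries (circles) and without replicate 3 of the RasG12V and untransformed groups (diamonds). No circle is filled, and the filled diamonds are Ccng1, Pmaip1, Perp and Ephx1 in the Cdk19 knockout, the only members under an adjusted p of 0.05 there.

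RasG12V replicate 3 weighed on this comparison. With both replicate 3 libraries left out, 0 members passed in Cdk8 knockout cells, against a background of 1.59%. In Cdk19 knockout cells 4 passed, which is 12.9%, against a background of 2.01%. Pmaip1 was at 207.3, 204.5 and 197.6 CPM in Cdk19 knockout libraries, against 270.6, 265.3 and 164.5 CPM in RasG12V libraries. Only replicate 3 of RasG12V was below the knockout values. The log2 fold change was -0.20 with all libraries (SE 0.15, adjusted p = 0.785) and -0.39 without both (adjusted p = 0.00114). In Cdk8 knockout libraries Pmaip1 was at 259.8, 250.1 and 239.4 CPM, below RasG12V replicates 1 and 2 and above RasG12V replicate 3.

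Perp was at 285.8, 288.9 and 277.3 CPM in Cdk19 knockout libraries, against 337.6, 335.1 and 322.2 CPM in RasG12V libraries. The groups did not overlap, and the log2 fold change was -0.22 with all libraries (adjusted p = 0.550) and -0.24 without both replicate 3 libraries (adjusted p = 0.0461). Ccng1 was at 2166, 2285 and 2144 CPM in Cdk19 knockout libraries, against 2714, 2581 and 2250 CPM in RasG12V libraries. Its log2 fold change was -0.19 with all libraries (adjusted p = 0.613) and -0.26 without both (adjusted p = 0.0270). Ephx1 turned with the setting: it was at 89.9, 71.9 and 92.1 CPM in Cdk19 knockout libraries, between the 54.5 and 51.8 CPM of RasG12V replicates 1 and 2 and the 165 CPM of replicate 3. Its log2 fold change was -0.10 with all libraries (adjusted p = 0.961) and 0.68 without both (adjusted p = 0.0255).

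Other members did not pass in any fit that was run, although several did not overlap. Aen was at 199.3, 190.3 and 184.6 CPM in Cdk8 knockout libraries, against 178.5, 179.1 and 157.9 CPM in RasG12V libraries (log2 fold change 0.16, adjusted p = 0.818). Ei24 was at 318.1, 316.0 and 335.6 CPM in Cdk8 knockout libraries, against 296.9, 315.4 and 314.6 CPM in RasG12V libraries, which did not overlap by a small margin (log2 fold change 0.07). Xpc was lower without overlap in both comparisons, with log2 fold changes of -0.20 in Cdk8 knockout cells (adjusted p = 0.818) and -0.17 in Cdk19 knockout cells (adjusted p = 0.687). Polk was lower without overlap in Cdk19 knockout cells (log2 fold change -0.16, adjusted p = 0.677). Ddit4l was higher without overlap in both, with log2 fold changes of 0.14 in Cdk8 knockout cells (adjusted p = 0.905) and 0.14 in Cdk19 knockout cells (adjusted p = 0.842). Trp53inp1 had the lowest log2 fold change in each, -0.47 in Cdk8 knockout cells (SE 0.28, adjusted p = 0.867) and -0.62 in Cdk19 knockout cells (SE 0.28, adjusted p = 0.652), where the Cdk8 knockout libraries overlapped those of RasG12V and the Cdk19 knockout libraries did not. These were -0.04 and -0.19 without both replicate 3 libraries.

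The knockouts were also compared with each other. Of 31 members 0 passed, against a background of 0.105% (15 genes in edgeR, 115 in DESeq2), and 1 had an unadjusted p under 0.05, against 7.19% of genes. That member was Perp, at 329.8, 351.7 and 321.3 CPM in Cdk8 knockout libraries, against 285.8, 288.9 and 277.3 CPM in Cdk19 knockout libraries. The groups did not overlap, which held for 20.7% of all genes (log2 fold change 0.24, SE 0.08, adjusted p = 0.510). Pmaip1, at 259.8, 250.1 and 239.4 CPM in Cdk8 knockout libraries and 207.3, 204.5 and 197.6 CPM in Cdk19 knockout libraries, did not overlap either (log2 fold change 0.30, SE 0.15, adjusted p = 0.731). The replicate 3 libraries of RasG12V and untransformed cells are in neither knockout group, but they enter the shared estimate of the spread. Without them Pmaip1 passed (log2 fold change 0.30, adjusted p = 0.00187), and so did Perp (log2 fold change 0.23, adjusted p = 0.0134). These are 6.45% of members, against a background of 5.32% of genes. Leaving out RasG12V replicate 3 alone gave 1 member past the threshold. Trp53 did not separate the knockouts (log2 fold change -0.02, SE 0.06, adjusted p = 0.999), and neither did Mdm2 (log2 fold change 0.05, SE 0.08, adjusted p = 0.992).

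Each knockout was then set against the untransformed cells, which both comparisons share with that of RasG12V. In Cdk8 knockout cells 8 members rose and 6 fell, which is 45.2% of 31, against a background of 24.4% (12.3% higher and 12.2% lower). In Cdk19 knockout cells 6 rose and 7 fell, which is 41.9%, against a background of 25.3% (12.4% higher and 12.9% lower). Without both replicate 3 libraries, 18 members passed in each knockout, which is 58.1%. The backgrounds were 42.2% for the Cdk8 knockout and 43.6% for the Cdk19 knockout. Of these members, 12 rose and 6 fell in Cdk8 knockout cells, and 11 rose and 7 fell in Cdk19 knockout cells. The members gained in these fits are not named here. Ephx1 fell in both, with a log2 fold change of -2.26 in Cdk8 knockout cells (adjusted p = 6.63e-04) and of -1.95 in Cdk19 knockout cells (adjusted p = 0.00155). Ddb2, Fas and Plk3 also passed in every fit that left out 1 library, in both knockouts. Their log2 fold changes in Cdk8 and Cdk19 knockout cells were -1.04 and -0.94 for Ddb2, -0.81 and -0.89 for Fas, and 0.67 and 0.66 for Plk3.

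Trp53 passed in both knockouts against untransformed cells. It was at 291.5, 283.5 and 300.2 CPM in Cdk8 knockout libraries and at 303.5, 292.3 and 293.9 CPM in Cdk19 knockout libraries, against 257.1, 241.7 and 261.1 CPM in untransformed libraries. No library of either knockout fell within the untransformed range. The log2 fold change was 0.20 in Cdk8 knockout cells (SE 0.06, adjusted p = 0.0335) and 0.23 in Cdk19 knockout cells (SE 0.06, adjusted p = 0.0188). These differences are small: the Cdk8 knockout mean was 1.15-fold and the Cdk19 knockout mean 1.17-fold the untransformed mean. The Cdk8 knockout call was lost without untransformed replicate 1 (adjusted p = 0.0810) or 2 (0.145), Cdk8 knockout replicate 1 (0.0661) or 3 (0.122), or Cdk19 knockout replicate 3 (0.0538). The Cdk19 knockout call was lost without untransformed replicate 1 (0.0518) or 2 (0.0925), or Cdk19 knockout replicate 1 (0.0601).

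In Cdk8 knockout cells Pmaip1 was 1.75-fold higher than in untransformed cells (log2 fold change 0.81, adjusted p = 0.00150), Perp 1.33-fold (adjusted p = 0.00303), Tnfrsf10b 1.28-fold (adjusted p = 0.00444) and Mdm2 1.27-fold (adjusted p = 0.00837), and Eda2r was lower (log2 fold change -0.46, adjusted p = 0.00215). Those calls, and that of Rrm2b (log2 fold change 0.44, adjusted p = 0.0176), held in each of the 12 fits that left out a library. Polk also rose (log2 fold change 0.29, adjusted p = 0.0158), but not without untransformed replicate 1 (adjusted p = 0.0727) or Cdk8 knockout replicate 1 (0.0582) or 3 (0.0632). Phlda3 and Xpc fell (log2 fold changes -0.21 and -0.30, adjusted p = 0.0379 and 0.0239). The call of Phlda3 held only without RasG12V replicate 3 or Cdk19 knockout replicate 3 and reached an adjusted p of 0.118 without Cdk8 knockout replicate 1. That of Xpc was lost without untransformed replicate 3 (0.0637), any of the Cdk8 knockout replicates (0.0556, 0.0816 and 0.0866 for replicates 1, 2 and 3) or Cdk19 knockout replicate 2 (0.0511).

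In Cdk19 knockout cells Pmaip1 was 1.43-fold higher than in untransformed cells (log2 fold change 0.51, adjusted p = 0.0217), Rrm2b 1.38-fold (adjusted p = 0.0139), Mdm2 1.23-fold (adjusted p = 0.0180) and Tnfrsf10b 1.19-fold (adjusted p = 0.0282). Eda2r (log2 fold change -0.34), Phlda3 (-0.28), Xpc (-0.27) and Dcxr (-0.65) were lower. Each of these 8 calls was lost in at least 1 fit that left out a library. Without Cdk19 knockout replicate 2 the members past the threshold numbered 6 of 31 and not 13, against a background of 18.1% of genes. Without untransformed replicate 1 they numbered 8 of 31, against 18.6%. The calls of Phlda3 (adjusted p = 0.0598), Eda2r (0.0566) and Rrm2b (0.0590) were lost only without Cdk19 knockout replicate 2.

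The call of Mdm2 was lost without untransformed replicate 1 (adjusted p = 0.0841) or 2 (0.0799) or Cdk19 knockout replicate 3 (0.0772). That of Pmaip1 was lost without untransformed replicate 1 (0.0614) or 3 (0.0608) or Cdk19 knockout replicate 1 (0.0605) or 2 (0.0553), although its lowest Cdk19 knockout library lay above its highest untransformed one. That of Tnfrsf10b was lost without untransformed replicate 1 (0.0650) or 2 (0.0885) or Cdk19 knockout replicate 2 (0.0598) or 3 (0.0995). The calls of Dcxr and Xpc were the least stable and passed in 5 and 3 of 12 such fits, with adjusted p up to 0.153 for Dcxr and 0.142 for Xpc, both without Cdk19 knockout replicate 2. Without both replicate 3 libraries Dcxr had an adjusted p of 0.0529. Perp (log2 fold change 0.17, adjusted p = 0.149) and Polk (log2 fold change 0.19, adjusted p = 0.100) did not pass in Cdk19 knockout cells with all libraries.

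Replicate 3 of the RasG12V and untransformed groups differed from its own group in particular members. Bbc3 was at 23.2 CPM in RasG12V replicate 3, against 9.98 and 9.15 CPM in replicates 1 and 2, and at 16.7 CPM in untransformed replicate 3, against 8.87 and 9.71 CPM. Trp53inp1 was at 200.8 CPM in RasG12V replicate 3, against 98.2 and 100.0 CPM, and at 197.0 CPM in untransformed replicate 3, against 107.7 and 104.8 CPM. Both genes were thus high in the same replicate of both groups. In the Cdk19 knockout, replicate 3 was also the highest for both, by less, with 13.6 CPM for Bbc3, against 9.20 and 9.67 CPM in replicates 1 and 2, and 93.0 CPM for Trp53inp1, against 86.4 and 80.4 CPM. It was the highest of its group for Sesn2 and Pltp too, and the lowest for Tigar and the S phase genes (2571 CPM, against 2809 and 2844 CPM). Pltp was at 9.85 CPM in RasG12V replicate 3, against 5.25 and 6.21 CPM, and at 12.04 CPM in untransformed replicate 3, against 4.51 and 4.48 CPM. Pltp lies across from Ctsa on the opposite strand. Tigar ran the other way, at 43.0 CPM in RasG12V replicate 3, against 68.3 and 67.9 CPM, and at 49.0 CPM in untransformed replicate 3, against 65.1 and 67.8 CPM.

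**Figure D5:**
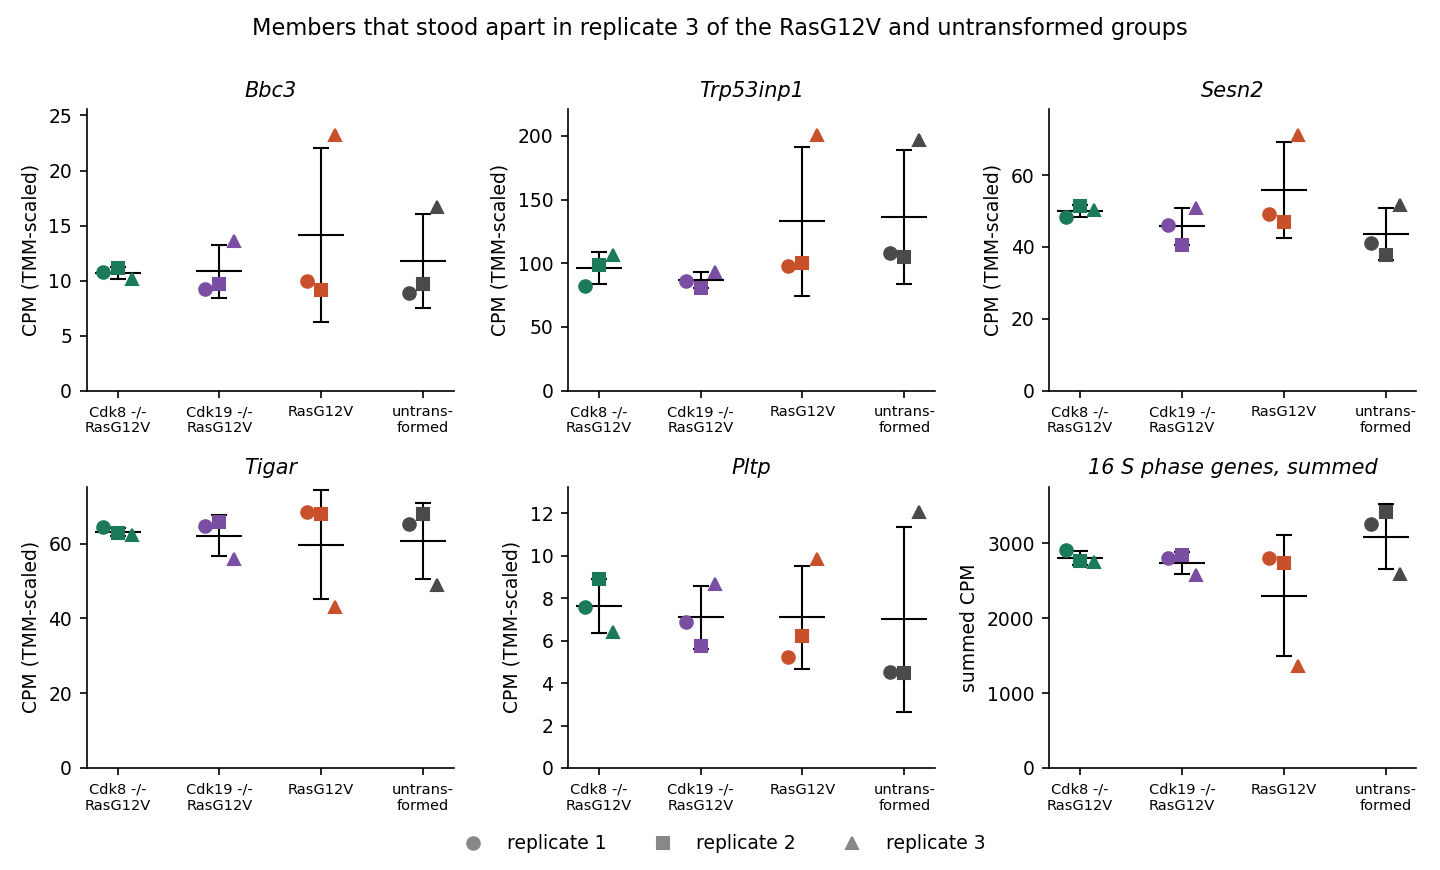
CPM of 5 members and summed CPM of 16 S phase genes in each library, with the mean (long bar) and SD (whiskers) of the 3 libraries of a group, and symbols for the replicate number. Replicate 3 of the RasG12V and untransformed groups was the highest library of its group for Bbc3, Trp53inp1, Sesn2 and Pltp and the lowest for Tigar and the S phase genes.

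Relative to the mean of replicates 1 and 2, 5 members were higher and 2 lower by at least 0.5 on the log2 scale in RasG12V replicate 3, which is 22.6% of members, against 24.9% of all genes. In untransformed replicate 3, 5 were higher and 0 lower, which is 16.1% of members, against 13.2% of all genes. The members were thus not set apart from other genes in how many of them differed there. The direction in the RasG12V and untransformed replicate 3 was the same for 23 of 31 members (74.2%), against 63.4% of all genes. The S phase genes, whose summed level was lowest in the same libraries, are shown beside the members, and their part in these values was not tested.

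Other genes of the p53 pathway were taken from lists of 90 entries, of which 83 were tested. In RasG12V cells 9 rose and 5 fell against untransformed cells, which is 16.9%, against 23.4% of all genes. Without both replicate 3 libraries 27 of 83 rose and 17 fell, a larger share than the 40.0% of all genes, so the side of the background turned with those libraries. Of 16 upstream kinases and sensors 0 passed with all libraries, where 3 had an unadjusted p under 0.05, against 34.7% of all genes, and 4 rose and 3 fell without both. Of 21 modifiers and partners 2 rose and 2 fell with all libraries, and 6 rose and 5 fell without both. Of 46 further targets 7 rose and 3 fell with all libraries, and 17 rose and 9 fell without both. Trp63 and Trp73, the paralogues of Trp53, were under the filter on low counts, with at most 0.106 CPM for Trp63 and 0.109 CPM for Trp73 in any library.

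Cdkn1a, which encodes the cell cycle inhibitor p21 and is a standard readout of p53, was at 382.7, 367.5 and 391.5 CPM in RasG12V libraries, against 410.5, 374.0 and 381.4 CPM in untransformed libraries. The groups overlapped (log2 fold change -0.03, SE 0.07, adjusted p = 0.795), and Cdkn1a averaged 408.7 ± 6.05 CPM in Cdk8 knockout cells and 410.3 ± 15.8 CPM in Cdk19 knockout cells (SD, n = 3). Cdkn2a, the locus of Arf and of the cyclin-dependent kinase inhibitor p16, was at 124.6, 118.0 and 189.3 CPM in RasG12V libraries, against 83.8, 82.8 and 117.6 CPM in untransformed libraries. It rose (log2 fold change 0.60, SE 0.18, adjusted p = 0.0273), with replicate 3 the highest library of each group, and gene counts cannot separate its transcripts. Ppm1d, a phosphatase that switches off p53 signalling, averaged 20.98 ± 1.29 CPM in RasG12V cells and 23.95 ± 1.88 CPM in untransformed cells and did not pass (adjusted p = 0.163).

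The other pathway genes with the smallest adjusted p-values were mostly further targets. Procr, the endothelial protein C receptor, was at 16.8, 17.2 and 13.2 CPM in RasG12V libraries, against 5.57, 5.35 and 5.07 CPM in untransformed libraries (log2 fold change 1.56, SE 0.12, adjusted p = 1.88e-06). The cytokine gene Lif (log2 fold change 1.31), the cyclin gene Ccng2 (1.01), the early response gene Ier3 (0.84), the small GTPase gene Rap2b (0.58) and the adenylate kinase gene Ak1 (0.51) also rose. Nuak1, a kinase related to AMPK, was at 11.3, 12.01 and 9.40 CPM in RasG12V libraries, against 20.5, 22.8 and 27.1 CPM in untransformed libraries, and fell (log2 fold change -1.11, SE 0.12, adjusted p = 4.65e-05). The receptor gene Notch1 fell too (log2 fold change -0.90, SE 0.20, adjusted p = 0.00564). Against RasG12V cells 0 of these 83 genes passed in either knockout by edgeR, with all libraries or without both replicate 3 libraries. At an unadjusted p under 0.05 there were 4 of 83 in each comparison, against 6.1% of all genes for the Cdk8 knockout and 7.62% for Cdk19. Without both libraries there were 22 of 83 in the Cdk8 knockout, against 2736 of 14493 genes (18.9%). In the Cdk19 knockout there were 10 of 83, against 2246 of 14493 genes (15.5%).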

How the data were processed

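RNA-seq of 12 BMEL libraries (4 groups of 3) was analysed. The values are read counts per gene deposited by the authors, and STAR 2.6.0a, FastQC and GRCm38.p6 are named in the submitters' processing notes. The annotation release is not given in the sources used here. Of the strand columns deposited, the reverse-strand counts were used, since they were between 24.7 and 28.9 times the forward-strand counts. Between 33.0% and 34.8% of reads were not assigned to a single gene and stayed out of library sizes. These were reads that were unmapped, mapped to several places, in no gene or ambiguous between genes. Reads mapped to several places made up 23.0% to 26.3% of all reads, and reads in no gene 4.31% to 5.85%.

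Genes with low counts were removed with filterByExpr by group, which left 14283. Libraries were TMM-scaled, and all 12 entered 1 robust quasi-likelihood fit by group (edgeR 4.0.16, R 4.3.3), with p-values adjusted over every gene in the fit by the method of Benjamini and Hochberg. The approximate SE is the absolute log2 fold change over the square root of F. Intervals and floors from counts cover counting error only. The procedure was tested on simulated data, with a common spread for all genes and no library that stood apart. That test therefore does not cover the effect of the replicate 3 libraries. Alternatives were DESeq2 1.42.0, its size factors, no filter, a minimum of 1 CPM in 3 libraries, counts of both strands, only the groups compared, a replicate block, and leaving out each library or both replicate 3 libraries. Figures were drawn with matplotlib 3.10.9.

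Every member is accounted for by name. Of the other pathway genes, Cdkn1a, Cdkn2a, Trp63, Trp73 and Ppm1d are named, and up to 8 with the smallest adjusted p. The members and lists were chosen with earlier results of these data known.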

Additional observations from a re-analysis of the deposited data

How the results depend on the processing

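The number of members past the threshold in RasG12V against untransformed cells was 13, and 6 with only those groups fitted; leaving out 1 library gave 11 to 15. The count of all genes was 3340, with 1574 when only those groups were fitted and 5799 without both replicate 3 libraries (2359 to 4808 leaving out 1). In Cdk8 knockout against RasG12V cells, 0 genes became 16 with no filter, 30 with DESeq2, 1 with the replicate block and 231 without both libraries (0 to 3 leaving out 1; members 0 to 0). In Cdk19 knockout against RasG12V cells, 2 genes became 84 with no filter, 66 with DESeq2, 1 with those groups alone and 291 without both (0 to 21 leaving out 1). There 0 members became 1 with DESeq2 (Trp53) and 4 without both (0 to 0 leaving out 1). Between the knockouts, 15 genes became 108 with no filter, 115 with DESeq2, 496 with those groups alone and 771 without both (0 to 133 leaving out 1), and 0 members became 2 with those groups alone and 2 without both (0 to 1 leaving out 1, without RasG12V replicate 3). Against untransformed cells, 3490 genes became 6116 without both for the Cdk8 knockout (2529 to 4880; members 10 to 15), and 3608 became 6314 for the Cdk19 knockout (2649 to 5094; members 6 to 15). The cause was not tested.

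Of 40 member results past the threshold, none reversed in 800 values, and 84 of the values lost the call. In RasG12V against untransformed cells, these log2 fold changes near 0 reversed: Aen (0.002 with no filter, 0.01 with the CPM minimum, 0.034 without both), Psrc1 (0.034 without both) and Tigar (0.02 without both). Ephx1 in Cdk19 knockout against RasG12V cells was 0.033 with the replicate block and 0.677 without both, and Pltp in Cdk19 knockout against untransformed cells was -0.02 with both strands. Fits that left out 1 library also reversed some values. In RasG12V against untransformed cells they ran from -0.025 to 0.042 for Trp53, -0.287 to 0.612 for Bbc3, -0.088 to 0.178 for Sesn1, -0.45 to 0.325 for Trp53inp1, -0.041 to 0.147 for Zmat3, -0.035 to 0.064 for Aen, -0.152 to 0.109 for Psrc1, -0.288 to 0.667 for Pltp and -0.155 to 0.183 for Tigar. Against untransformed cells, Psrc1 ran from -0.069 to 0.192 and Pltp from -0.129 to 0.763 in the Cdk8 knockout, and Psrc1 from -0.037 to 0.224 and Pltp from -0.233 to 0.658 in the Cdk19 knockout. Ephx1 in Cdk19 knockout against RasG12V cells ran from -0.375 to 0.672. None of these was past the threshold with all libraries.

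Replicate numbers were not taken to pair the libraries, since the labels do not say that a number marks a shared culture or day. Deviations of same-numbered libraries correlated between -0.168 and 0.282, against -0.295 to 0.222 for different numbers. These ranges overlap and do not settle whether the numbers pair the libraries. By number, 6 of 12 libraries correlated best with one of their own number, where 18 pairs shared a number and 36 did not. Among replicate 3 libraries the values ran from -0.0874 (untransformed with Cdk8 knockout) to 0.282 (RasG12V with Cdk19 knockout). With the replicate block 3685 genes and 16 members passed in RasG12V against untransformed cells, with Ccng1, Sesn2 and Dcxr added.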
